A study of Homo sapiens with 13 samples.

Results

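ETV1, ETV4 and ETV5 are the 3 members of the PEA3 group of ETS transcription factors, and they were followed by symbol through every library of a human neuron differentiation series. All 3 were counted in both gene tables, which hold 60500 and 60554 genes. The cells were H9, an established human embryonic stem cell line, made stable for a doxycycline-inducible human NEUROG2, a proneural factor whose forced expression turns stem cells into neurons. Every group was grown in E8, a stem cell medium, for 2 days and then in the neuronal medium 3N, except the day 0 library, which was taken at the start. E8 itself contains FGF2, so the early days of all groups had this ligand whether or not more was added.

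The doxycycline set had 5 libraries and no replicates: day 0, day 5 without and with 5 days of doxycycline, and day 11 without and with 11 days of doxycycline. Its titles carry the line name hES-N1, which differs from the names in the FGF2 set. The FGF2 set had 4 groups of 2 libraries, each with doxycycline on its first 6 days. Early FGF2 means FGF2 added alongside doxycycline, with harvest on day 6. Late FGF2 means FGF2 added once doxycycline had been taken away, with harvest on day 12; one label puts it at days 6-12 and another at days 7-12. Each time had its own control without added FGF2. The text of the day 12 controls speaks of 6 days' growth, but their titles and their culture periods come to 12. Doxycycline was used at 1 ug/ml and FGF2 at 20 ug/ml as labelled. Each library came from 1 culture well, and replicates 1 and 2 carry different line names in the titles, hES-N2G1 and hES-N2G2, with nothing on whether these are clones. The p-values therefore measure the spread between these libraries.

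PEA3 factors bind GGAA-centred sites and act at the end of the receptor tyrosine kinase, RAS and ERK route. In many embryonic tissues their transcription is used as a readout of FGF signalling, because ERK relieves the repressor CIC (Capicua) from their genes. In the nervous system they are known from motor and sensory neurons, where target-derived factors such as GDNF switch on ETV4 and neurotrophin-3 switches on ETV1, and from cortical layer V neurons, where ETV1 is a marker. In bulk RNA, fewer cells that express a gene and less RNA per cell cannot be told apart.

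On GRCh38 with GENCODE 29, ETV1 (ENSG00000006468) lies on the minus strand of chromosome 7 from 13891228 to 13991425, with 9616 bases of merged exons that overlap no other gene. ETV4 (ENSG00000175832) lies on the minus strand of chromosome 17 from 43527844 to 43579620, with 3607 exon bases, of which 1.885% overlap DHX8. ETV5 (ENSG00000244405) lies on the minus strand of chromosome 3 from 186046308 to 186110318, with 5802 exon bases, of which 2.827% overlap DGKG. The library kit does not mark strand. The antisense gene ETV5-AS1 had 0 to 10 counts in each of the 13 libraries.

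CIC is known to bind the octamers TGAATGAA and TGAATGGA, and proneural factors of the NEUROG class to bind E-boxes such as CAGATG and CAGCTG. These letters, and the ETS octamer CCGGAAGT, were searched on both strands in the 250 bases before each annotated start in RefSeq promoters of GRCh38.p14. ETV1 has 6 such starts in that table. At the start at 13991425, which is also the outermost start of the gene model, the window holds TGAATGGA on the gene strand, 125 to 118 bases before the start. At the starts at 13990706 and 13990702, whose windows overlap, it holds CAGCTG, 143 to 138 and 147 to 142 bases before the start. The first 2 of these windows are shown 5′ to 3′ on the gene strand with the matched letters in capitals, because CIC and NEUROG2 are the regulators that the added FGF2 and the doxycycline are known to bear on.
ETV1 chr7:13991426-13991675, minus strand: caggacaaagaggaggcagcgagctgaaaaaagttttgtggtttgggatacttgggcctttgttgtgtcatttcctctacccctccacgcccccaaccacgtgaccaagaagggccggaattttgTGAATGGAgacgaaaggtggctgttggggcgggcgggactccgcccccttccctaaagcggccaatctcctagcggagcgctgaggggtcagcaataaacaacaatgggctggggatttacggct
ETV1 chr7:13990707-13990956, minus strand: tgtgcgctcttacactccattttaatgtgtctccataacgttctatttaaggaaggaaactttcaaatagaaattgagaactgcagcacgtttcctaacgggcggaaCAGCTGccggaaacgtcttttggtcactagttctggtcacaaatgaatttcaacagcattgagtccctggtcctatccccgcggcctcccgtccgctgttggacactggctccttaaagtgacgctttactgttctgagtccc
Of 35116 promoter windows of this length, 0.832% hold TGAATGGA, 1.404% TGAATGAA, 3.423% CCGGAAGT, 12.151% CAGATG and 13.985% CAGCTG. A match describes the letters only and is neither a measured binding site nor a cause.

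The libraries held 28443657 to 47159475 counts (doxycycline set) and 22802501 to 30014661 counts (FGF2 set). The 2 day 6 FGF2 libraries differed most from each other: their counts had a chi-square of 19 per degree of freedom, against 2.87 to 3.26 in the other 3 pairs. The cell type labels were checked with 8 markers each. Summed neuron markers were 61.95 to 322.5 CPM (counts scaled to a fixed library size) in the 3 uninduced libraries and 9578 and 9733 CPM in the 2 induced ones. In the FGF2 set they were 6814 to 7152 CPM on day 6 and 11580 to 11950 CPM on day 12. Summed pluripotent markers fell from 4770 CPM on day 0 to 626.9 and 205.0 CPM with doxycycline.

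Late FGF2 raised all 3 PEA3 factors, and ETV4 far more than the other two. ETV4, which was close to silent in these neurons, rose 56.1-fold, while ETV1 and ETV5 each about doubled, by 2.05-fold and 2.12-fold. Levels are CPM scaled by TMM, the trimmed mean method of edgeR, and calls are at an adjusted p under 0.05 over 20142 tested genes. By this rule 2.17% of all genes changed with late FGF2, and 1.63% were higher, against 3 of 3 members.

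ETV4 stood at 2.311 and 1.152 CPM in the 2 day 12 controls and at 96.67 and 99.64 CPM in the 2 day 12 FGF2 libraries. The raw counts behind these were 57 and 27 in the controls against 2582 and 3023 with FGF2. The treated libraries lay close together and far above the controls, whose own values differed from each other by more in proportion. The log2 change was 5.81 ± 0.171 (SE, n = 2 against 2; 95% interval of the fold 43.6 to 72.3), with an adjusted p of 4.01e-11 by edgeR's quasi-likelihood test. ETV4 ranked the 6th of 20142 genes by size of increase and the 1st by p. Because the control counts are small, the fold leans on them: the log2 change was 6.41 without control replicate 1 and 5.4 without control replicate 2.

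ETV5 stood at 40.1 and 40.97 CPM in the day 12 controls and at 84.24 and 87.68 CPM with late FGF2. All 4 values of ETV5 were tight and the groups did not overlap. The change was 1.08 ± 0.082 on the log2 scale (SE; 95% interval of the fold 1.88 to 2.39; edgeR adjusted p = 1.24e-06). ETV1 stood at 44.24 and 33.76 CPM in the controls and at 83.37 and 76.86 CPM with late FGF2. The groups did not overlap here either, with a wider gap between the 2 control libraries. The change of ETV1 was 1.04 ± 0.119 (SE; 95% interval of the fold 1.72 to 2.45; edgeR adjusted p = 8.99e-05). The intervals of ETV1 and ETV5 overlap one another and lie apart from that of ETV4. No marker of dividing cells was called with late FGF2 (0 of 8 by edgeR, DESeq2 or limma, and 0 at an unadjusted p under 0.05 by edgeR). With 2.17% of all genes called, a count of 0 among 8 is near the background. The summed level of these markers was 13.58 to 15.79 CPM in the controls and 12.5 to 15.62 CPM with FGF2. Other markers did move by edgeR: the neural progenitor markers SOX2 and SOX1 fell (2 of 8), and the neuron marker SYT1 (1 of 8) and the glial marker OLIG2 (1 of 6 tested) rose. Summed levels in the controls and with FGF2 did not overlap for glia (11.99 to 13.1 against 16.7 to 17.47 CPM, with SOX10 at 0), neural progenitors (540.6 to 578.2 against 591.6 to 659.5 CPM) and pluripotent cells (137.7 to 148.9 against 156.3 to 171.4 CPM, with TDGF1 at 0 in both and ESRP1 in the controls). Their part in the PEA3 values was not tested.

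**Figure D1:**
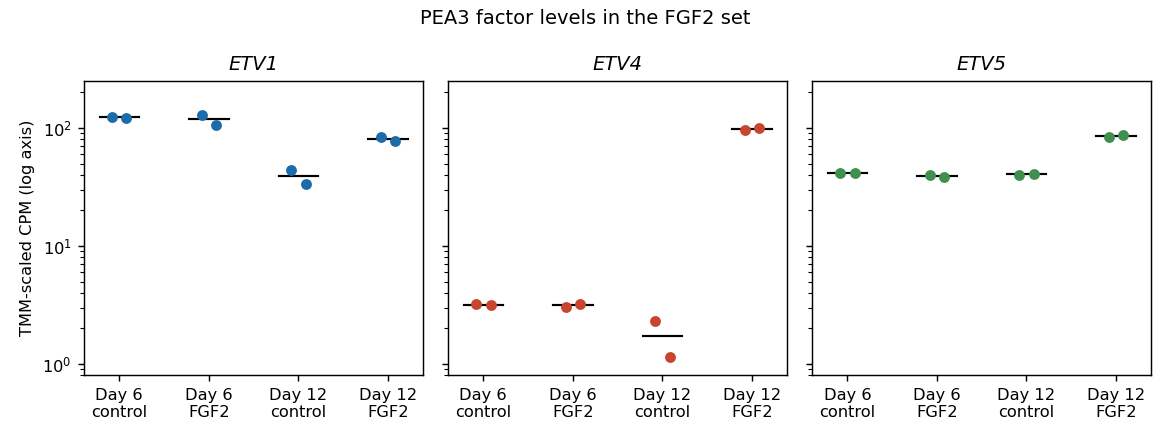
TMM-scaled CPM of ETV1, ETV4 and ETV5 in the 8 libraries of the FGF2 set on a log axis; points are libraries and bars are group means (n = 2). ETV4 lies between 1.152 and 3.223 CPM in 6 libraries and at 96.67 and 99.64 CPM in the 2 with late FGF2, while ETV5 is raised in the same 2 libraries only to 84.24 and 87.68 CPM and ETV1 falls between its day 6 and its day 12 control levels.

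The authors' deposited tables give the late change of the same genes by their own fits. In the authors' deposited limma table the log2 changes were 1.04 for ETV1, 5.87 for ETV4 and 1.08 for ETV5. The authors' deposited DESeq2 table lists 0.62 for ETV1, 0.98 for ETV4 and 0.97 for ETV5, with adjusted p of 8.48e-06, 7.49e-18 and 2.21e-38. All 3 were called in both tables, which differ in size for ETV4 and, less so, for ETV1. A DESeq2 Wald test run here on the deposited counts gave 5.81 for ETV4.

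Early FGF2 left no detectable difference in any of the 3. ETV1 was at 124.3 and 122.4 CPM in the day 6 controls and at 129.7 and 106.6 CPM with early FGF2. ETV4 was at 3.223 and 3.133 CPM in the controls and at 3.051 and 3.221 CPM with FGF2. ETV5 was at 41.3 and 41.71 CPM in the controls and at 40.21 and 38.32 CPM with FGF2. The ETV1 and ETV4 groups overlapped, and the ETV5 values with FGF2 lay just under the controls.

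The log2 changes with early FGF2 were -0.06 for ETV1 (95% interval -0.30 to 0.18), -0.02 for ETV4 (-0.46 to 0.42) and -0.08 for ETV5 (-0.26 to 0.10), with edgeR adjusted p of 0.951, 0.991 and 0.927. These intervals leave room for small changes but not for those seen on day 12. By edgeR 0.0% of genes (0 of 20142) were called with early FGF2, 658 had an unadjusted p under 0.05, and both DESeq2 (314 at an unadjusted p under 0.05) and limma (682) also called 0. Leaving out day 6 FGF2 replicate 1 gave 2523 called genes, none of them a member, with adjusted p of 0.149 for ETV1, 0.972 for ETV4 and 0.452 for ETV5.

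The late and early changes differed by test for all 3 factors. The late change minus the early one was 5.83 for ETV4 (edgeR adjusted p = 2.78e-08), 1.16 for ETV5 (8.13e-05) and 1.10 for ETV1 (0.00269) on the log2 scale. Over all genes 0.73% differed in this way. Time and the state of the cells differ between the 2 treatments along with doxycycline withdrawal, and these cannot be told apart.

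**Figure D2:**
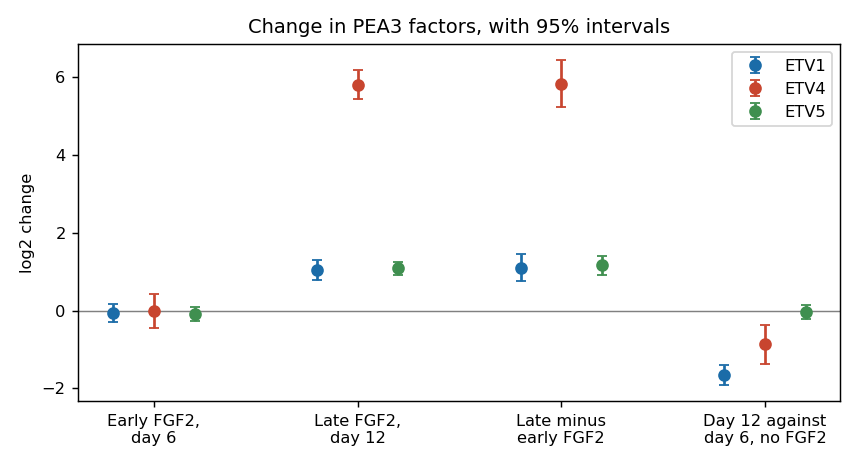
log2 change of each PEA3 factor in 4 comparisons of the FGF2 set, with 95% intervals from edgeR's quasi-likelihood fit over 8 libraries. All 3 intervals include 0 with early FGF2, whereas with late FGF2 ETV4 stands at 5.81 and ETV1 and ETV5 at 1.04 and 1.08.

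Without added FGF2 the 3 factors took different courses from day 6 to day 12. ETV1 fell from 124.3 and 122.4 CPM to 44.24 and 33.76 CPM, a log2 change of -1.66 (edgeR adjusted p = 8.29e-09). ETV4 fell from 3.223 and 3.133 CPM to 2.311 and 1.152 CPM, a log2 change of -0.86 (edgeR adjusted p = 0.00453). ETV5 was at 41.3 and 41.71 CPM and then at 40.1 and 40.97 CPM, a change of -0.03 (95% interval -0.21 to 0.14; edgeR adjusted p = 0.735). The fall of ETV4 rests on control replicate 2: without that library the change was -0.46 with an adjusted p of 0.0761. Over this interval 64.0% of all genes changed and 32.3% were lower, against 2 of 3 members for both shares. Summed dividing-cell markers were 414.6 to 604.0 CPM on day 6 and 12.5 to 15.79 CPM on day 12, and 8 of 8 fell between the controls. Over the same interval 6 of 8 neural progenitor markers fell and 1 rose, with summed levels of 1500 to 1505 CPM in the day 6 and 540.6 to 578.2 CPM in the day 12 controls. Of 6 tested mesenchyme and endothelium markers 5 fell and 1 rose (34.25 to 37.39 and 3.122 to 3.713 CPM), 3 of 3 tested pluripotent markers fell (267.4 to 269.5 and 137.7 to 148.9 CPM), and of 6 tested glial markers 3 fell and 2 rose. Of 8 neuron markers 5 rose and 1 fell. Their part in the falls was not tested.

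With late FGF2 the 3 factors also stood differently against their own day 6 levels. ETV1 at day 12 with FGF2 remained under the day 6 control, by a log2 change of -0.62 (edgeR adjusted p = 0.000215), and under day 6 FGF2 (-0.56, adjusted p = 0.000497). ETV4 and ETV5 exceeded the day 6 control, by 4.95 (adjusted p = 5.68e-13) and 1.05 (2.06e-08). Of all genes, 63.1% differed between day 12 FGF2 and the day 6 control, 65.5% between day 12 FGF2 and day 6 FGF2, and 66.4% between the day 12 control and day 6 FGF2. These comparisons share libraries with those above.

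The order of groups thus differed by gene. For ETV1 the 2 day 6 groups were highest and did not differ beyond their spread, day 12 FGF2 came next and the day 12 control was lowest. For ETV4 day 12 FGF2 was highest, the 2 day 6 groups did not differ beyond their spread, and the day 12 control was lowest with the exception named above. For ETV5 day 12 FGF2 was highest and the other 3 groups did not differ by the test; the day 12 control against day 6 FGF2 gave a log2 change of 0.05 (edgeR adjusted p = 0.642).

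In the doxycycline set the 3 factors moved in different directions as stem cells became neurons. ETV4, the main PEA3 factor of the undifferentiated cells, was lower with doxycycline on both days. ETV5 and ETV1 were higher with doxycycline on day 5 and lower on day 11. With 1 library a group there is no test; each ratio has a 95% interval for counting error only, and a difference of at least 4-fold after adding 1 CPM, at 10 CPM or more in either library, serves as a size rule.

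ETV4 was at 134.9 CPM on day 0, 102.0 CPM on day 5 without doxycycline, 13.17 CPM on day 5 with it, 23.28 CPM on day 11 without it and 2.757 CPM on day 11 with it. Day 0 was highest, and the 2 induced libraries were lowest. On day 5 it was 7.743-fold lower with doxycycline (7.07 to 8.494), and on day 11 8.443-fold lower (6.788 to 10.61), both past the size rule. It also dropped in uninduced cells, where day 11 was 5.796-fold lower than day 0 (5.374 to 6.258) and 4.382-fold lower than day 5 (4.05 to 4.745). The second of these, past the size rule by TMM, missed it when scaled by library totals (log2 ratio -1.85).

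ETV5 was at 45.6 CPM on day 0, 28.4 CPM on day 5 without doxycycline, 154.4 CPM on day 5 with it, 65.32 CPM on day 11 without it and 38.45 CPM on day 11 with it. The induced day 5 library stood above the other 4. The day 5 level with doxycycline was 5.435 times that without it (5.07 to 5.832), past the size rule. By day 11 the ratio had turned, to 1.699-fold lower with doxycycline (1.585 to 1.822). In uninduced cells ETV5 was 1.606-fold lower on day 5 than on day 0 (1.482 to 1.741) and on day 11 was 2.3 times its day 5 level (2.128 to 2.488).

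ETV1 was at 79.33 CPM on day 0, 36.32 CPM on day 5 without doxycycline, 105.2 CPM on day 5 with it, 33.64 CPM on day 11 without it and 8.635 CPM on day 11 with it. It was highest in the induced day 5 library and lowest in the induced day 11 one. The level with doxycycline was 2.896 times that without it on day 5 (2.714 to 3.092) and 3.896-fold lower on day 11 (3.418 to 4.453), neither past the size rule. Between the 2 induced libraries ETV1 dropped 12.18-fold (10.8 to 13.78), ETV4 4.778-fold (3.821 to 6.034) and ETV5 4.015-fold (3.78 to 4.268); only ETV1 passed the size rule after the 1 CPM was added. The uninduced day 5 and day 11 levels of ETV1 did not differ beyond counting error, at a ratio of 0.926 (0.852 to 1.006).

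By the size rule 24.1% of genes differed with doxycycline on day 5 and 21.4% on day 11, against 2 of 3 members and 1 of 3. Between induced days 5 and 11 it was 1.96% of genes and 1 of 3 members. In uninduced cells it was 1.05% for day 5 against day 0 with 0 of 3 members, 4.57% for day 11 against day 0 with 1 of 3, and 6.98% for day 11 against day 5 with 1 of 3. Cell type markers differed between the same libraries. The sum of the dividing-cell markers was 2044 CPM in uninduced and 81.75 CPM in induced cells of day 5, and 2217 and 35.9 CPM by day 11. Neural progenitor markers summed to 681.7 CPM uninduced and 1016 CPM induced on day 5, then 738.1 and 518.1 CPM on day 11. Of those at 10 CPM or more, 0 of 4 were past the size rule upwards on day 5 and 3 downwards. On day 11 it was 0 and 5 of 6. Glial markers summed to 186.5 and 35.85 CPM on day 5, then 83.27 and 11.73 CPM. Mesenchyme and endothelium markers summed to 805.6 and 20.6 CPM, then 127.4 and 19.57 CPM. Summed pluripotent markers were 5602 and 626.9 CPM on day 5 and 2066 and 205.0 CPM on day 11. Their part in the PEA3 values was not tested.

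**Figure D3:**
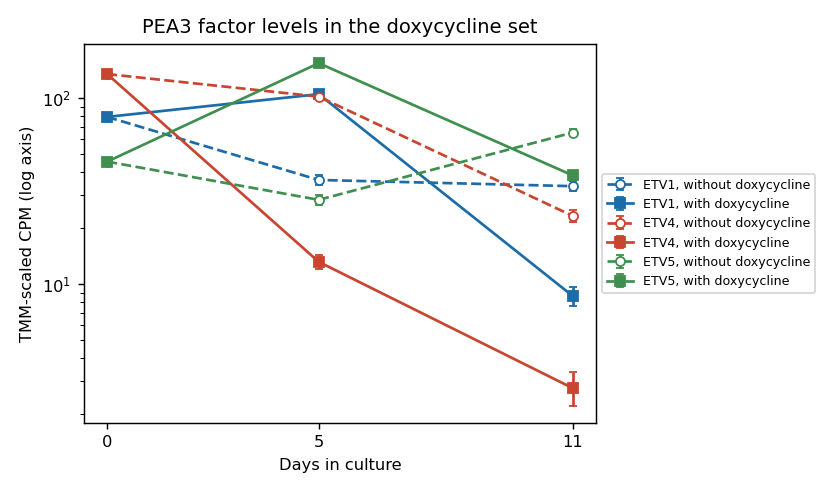
TMM-scaled CPM of the PEA3 factors over days in culture on a log axis, with doxycycline (filled squares, solid lines) and without (open circles, dashed lines), 1 library a point; bars are 95% counting intervals. ETV4 goes from 134.9 to 2.757 CPM with doxycycline, while ETV1 and ETV5 peak on day 5 at 105.2 and 154.4 CPM.

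Levels of the 3 factors were compared with each other per kilobase of merged exon, since ETV1 has the longest transcript model. On this scale ETV4 made up 69.9% of the summed PEA3 level on day 0 and 76.5% in uninduced cells on day 5. ETV5 made up 64.6% in induced cells on day 5, 53.1% in uninduced cells on day 11 and 80.0% in induced cells on day 11. In the FGF2 set ETV1 made up 61.5% ± 0.353 (SD, n = 2) in the day 6 controls, with ETV4 at 4.22% ± 0.0634. In the day 12 controls ETV5 led with 60.9% ± 5.63 and ETV4 stood at 4.10% ± 1.65. With late FGF2 ETV4 led with 54.0% ± 0.596 of the sum, ahead of ETV5 with 29.4% ± 0.527 and ETV1 with 16.6% ± 1.12.

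The summed level was 53.5 CPM per kilobase on day 0 and 8.29 in induced cells on day 11. In the FGF2 set it was 20.9 ± 0.106 (SD, n = 2) in the day 6 controls, 19.9 ± 1.89 with early FGF2, 11.5 ± 0.891 in the day 12 controls and 50.4 ± 0.523 with late FGF2. The 2 sets carry different line names and were normalized apart, so their levels stand side by side only. Exon models pool all transcripts of a gene, and the isoforms in use were not resolved.

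**Figure D4:**
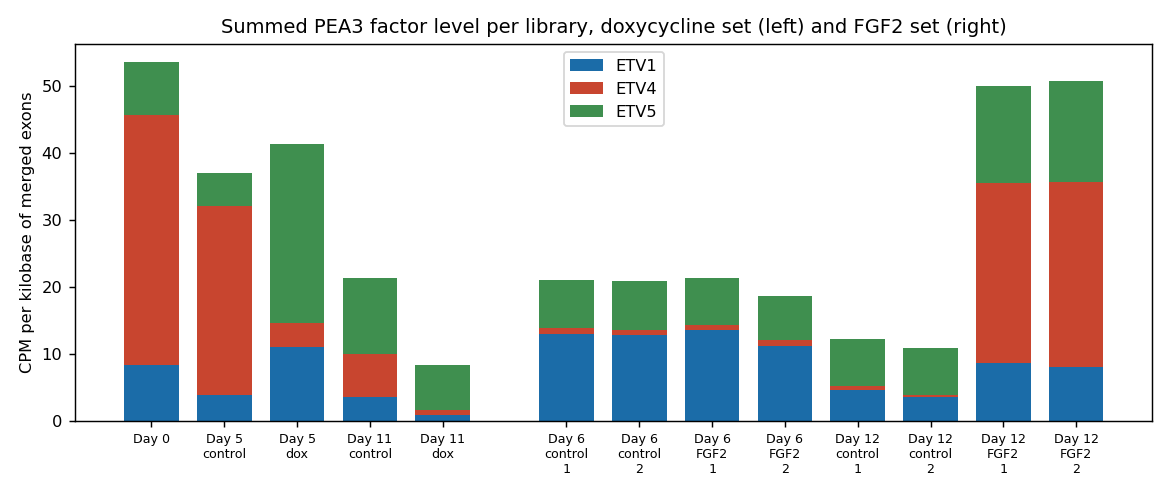
Summed level of ETV1, ETV4 and ETV5 in each of the 13 libraries in CPM per kilobase of merged exons, stacked by gene. ETV4 fills most of the bars of day 0, uninduced day 5 and both late FGF2 libraries, ETV1 those of day 6, and ETV5 those of induced day 5, both day 11 libraries and the day 12 controls.

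Upstream of ERK, 1 of 17 tested receptor tyrosine kinases and co-receptors rose and 1 fell with late FGF2, beside 2.17% of all genes called (median log2 change -0.09, against 0.00 for all genes). With the day 12 libraries alone 3 of 15 tested rose and 3 fell, beside 1338 of 18870 genes called. RET, the GDNF receptor, rose from 264.0 ± 8.29 to 488.8 ± 11.4 CPM (SD, n = 2; log2 change 0.89) and KIT, the stem cell factor receptor, fell from 6.97 ± 0.165 to 3.89 ± 0.275 CPM (-0.84). The call of KIT was lost without either day 12 control or without day 12 FGF2 replicate 2 (edgeR adjusted p = 0.0577 to 0.139). FGFR1 was the FGF receptor with counts to speak of, at 143.4 ± 7.38 CPM in the day 12 controls and 150.8 ± 2.80 CPM with FGF2 (edgeR adjusted p = 0.838). FGFR2, FGFR3 and FGFR4 had means of 0.155 to 1.33 CPM in those 4 libraries.

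Between the day 6 and day 12 controls 9 of the 17 receptors rose and 5 fell, beside 64.0% of all genes called (median 1.36). FGFR1 rose from 47.1 ± 0.681 to 143.4 ± 7.38 CPM (SD, n = 2; log2 change 1.61) and RET from 26.4 ± 0.459 to 264.0 ± 8.29 CPM (3.32). NTRK2, the BDNF receptor, rose from 0.730 ± 0.365 to 87.5 ± 1.41 CPM (6.90). FGFR2 and FGFR3 fell by 1.72 and 5.36 on the log2 scale. On day 5 of the doxycycline set the FGFR1 level was 1047 CPM in uninduced and 75.6 CPM in induced cells, and by day 11 these levels were 583.0 and 154.9 CPM. RET went the other way, with 39.8 CPM uninduced and 404.4 CPM induced on day 5, then 9.04 and 313.8 CPM.

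In the RAS-ERK cascade, 1 of 20 tested genes changed with late FGF2, beside 2.17% of all genes (median log2 change -0.01). With the day 12 libraries alone 1 rose and 2 fell, beside 1338 of 18870 genes called. The gene called in the fit of 8 libraries was the adaptor SHC1, which rose from 25.97 ± 0.0309 to 45.4 ± 5.91 CPM (SD, n = 2; 0.80). Between the controls of day 6 and day 12, 9 of the 20 rose and 8 fell (median 0.07), beside 64.0% of all genes. SHC1 and NRAS, a RAS GTPase, fell by 1.86 and 0.89, and the scaffold KSR2 rose by 6.00 from 0.451 ± 0.273 CPM.

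Most genes of a list of FGF and ERK feedback targets rose with the PEA3 factors under late FGF2. The list was drawn up with earlier results of these data known, so its counts are not independent of them. Of 17 tested members 13 rose and 0 fell, beside 1.63% of all genes that rose (median log2 change 0.94, against 0.00 for all genes). The ERK phosphatase DUSP6 rose from 34.3 ± 2.84 to 238.2 ± 21.4 CPM (SD, n = 2; log2 change 2.79). SPRY4 and SPRY2, Sprouty inhibitors of receptor signalling, rose from 7.52 ± 1.52 to 68.1 ± 0.0488 CPM (3.17) and from 13.3 ± 0.0109 to 46.5 ± 0.256 CPM (1.81), and the adaptor SHC4 rose from 12.7 ± 1.42 to 51.2 ± 0.540 CPM (2.02). These 13 numbered 9 to 11 when 1 day 12 library was left out. Early FGF2 changed 0 of 17 by edgeR, DESeq2 and limma (2 at an unadjusted p under 0.05 by edgeR; median -0.04). Without day 6 FGF2 replicate 1 some of the list were called lower. That fit has 1 library in the group and many more calls over all genes. ETV4 thus had a larger log2 increase than each of these 17 genes, while those of ETV1 and ETV5 lay near the middle of the list.

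From day 6 to day 12 without FGF2 the same list split, with 6 of 17 rising and 9 falling, beside 64.0% of all genes called (median -0.40). PHLDA1 and SPRY4 fell by 4.14 and 3.50 on the log2 scale and SPRED3, a Sprouty-related inhibitor, rose by 1.36. In the doxycycline set 3 of 17 members at 10 CPM or more were past the size rule upwards and 4 downwards on day 5, and 3 and 3 of 13 on day 11, beside 24.1% and 21.4% of all genes past it in either direction. DUSP4, another ERK phosphatase, had 8.29 CPM in uninduced and 327.9 CPM in induced cells of day 5. DUSP6 had 70.3 CPM uninduced and 103.8 CPM induced on day 5, then 106.4 and 65.6 CPM by day 11. IL17RD, an FGF signalling inhibitor, had 60.6 CPM uninduced and 96.6 CPM induced on day 5, then 279.0 and 98.0 CPM. Like ETV1 and ETV5, these last 2 were higher with doxycycline on day 5 and lower on day 11.

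None of 10 regulators and cofactors of PEA3 proteins passed the test with late FGF2 by edgeR, DESeq2 or limma. With 2.17% of all genes called, a count of 0 among 10 is near the background. By edgeR 0 had an unadjusted p under 0.05 (median log2 change -0.06). With the day 12 libraries alone 0 rose and 1 fell, beside 1338 of 18870 genes called, and 3 of the 10 had an unadjusted p under 0.05. CIC, the repressor, was at 148.0 ± 1.92 CPM in the day 12 controls and 136.9 ± 5.32 CPM with FGF2 (SD, n = 2; edgeR adjusted p = 0.699). From day 6 to day 12, 4 of 10 rose and 0 fell, beside 64.0% of all genes called, and without either day 6 FGF2 library 4 rose and 3 fell. CIC rose by 0.45 on the log2 scale, its partner ATXN1 by 1.67 and the acetyltransferase CREBBP by 0.47. In the doxycycline set the CIC level was 73.7 CPM in uninduced and 192.5 CPM in induced cells of day 5, and 70.5 and 200.0 CPM by day 11. These are RNA levels, and CIC is known to be controlled at the protein level.

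Of 24 genes reported elsewhere as PEA3 targets 14 passed the filter on low counts, and of these 2 rose and 1 fell with late FGF2, beside 2.17% of all genes called (median log2 change -0.11). The guidance cue SEMA3E, which depends on ETV4 in mouse motor pools, rose from 27.9 ± 0.811 to 44.1 ± 1.52 CPM (SD, n = 2; 0.66), the matrix protease MMP2 rose from 12.6 ± 0.985 to 19.1 ± 0.0594 CPM (0.61), and the cadherin CDH8 fell from 41.9 ± 2.20 to 28.3 ± 0.0893 CPM (-0.57). SEMA3E lost its call without day 12 control replicate 2 (log2 change 0.626). MMP2 (0.524 to 0.697) and CDH8 (-0.61 to -0.515) lost theirs without any 1 of the 4 day 12 libraries. Scaled by library totals, MMP2 was not called with all 8 libraries either (0.589, edgeR adjusted p = 0.0609). With the day 12 libraries alone 5 of 13 tested rose and 1 fell, beside 1338 of 18870 genes called. From day 6 to day 12 without FGF2, 7 of the 14 rose and 7 fell, beside 64.0% of all genes called, with MET (7.47), CDH8 (6.39) and VIM (2.71) among those that rose.

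No other ETS gene was called with late FGF2 by edgeR, DESeq2 or limma (0 of 13 tested, of 25 in the family list; 3 at an unadjusted p under 0.05 by edgeR; median log2 change -0.11). With 2.17% of all genes called, a count of 0 among 13 is near the background. From day 6 to day 12 without FGF2, 5 of the 13 rose and 4 fell, beside 64.0% of all genes called. ETS2 rose from 24.1 ± 0.146 to 76.6 ± 4.37 CPM (SD, n = 2), ETV3L rose from 0.172 ± 0.000173 to 11.7 ± 0.189 CPM, and ELK3 fell from 18.8 ± 1.99 to 0.518 ± 0.128 CPM. In the doxycycline set the ELK4 level was 111.6 CPM in uninduced and 20.6 CPM in induced cells of day 5, and 74.2 and 16.3 CPM by day 11.

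The genes most alike in pattern were ranked by the lower of 2 Pearson correlations of log2(CPM + 1), over the 8 and over the 5 libraries, among 11731 genes. The libraries of a set share their normalization, and the values describe these 13 libraries only. For ETV1 the closest were CLIC1 (likeness 0.945), EIF4G1 (0.931), RPS26 (0.915), GALNT18 (0.912) and BCAT1 (0.897). CLIC1 fell from 156.2 ± 9.56 CPM in the day 6 to 50.3 ± 1.41 CPM in the day 12 controls and rose to 100.1 ± 2.90 CPM with late FGF2 (SD, n = 2; edgeR adjusted p = 5.94e-05 for the rise). RPS26 has near-identical copies elsewhere in the genome, so its counts are uncertain. Scaled by library totals, the first 4 ranked 1st, 6th, 4th and 2nd, and BCAT1 78th.

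For ETV4 the closest were FZD7, a Wnt receptor (0.934), MAN2A1 (0.909), ALDH18A1 (0.893), CDC14B (0.891) and PFKP (0.884). FZD7 rose with late FGF2 from 18.6 ± 1.21 to 27.4 ± 0.289 CPM (SD, n = 2; edgeR adjusted p = 0.0076), a far smaller rise than that of ETV4. For ETV5 the closest were SST, the somatostatin precursor (0.838), PRKG1 (0.804), ZDHHC3 (0.804), CANX (0.803) and ASF1A (0.798). With library totals the ETV4 list ranked 1st, 2nd, 11th, 5th and 6th and the ETV5 list 5th, 2nd, 1st, 86th and 16th. PRKG1 rose with late FGF2 from 36.4 ± 0.737 to 104.4 ± 0.232 CPM (SD, n = 2; edgeR adjusted p = 2.73e-06). Between the day 6 and day 12 controls PRKG1 and SST also rose, by log2 changes of 1.54 and 1.25, where ETV5 changed by -0.03. ZDHHC3, CANX and ASF1A were not called between these controls (edgeR adjusted p = 0.0556 to 0.93). In the doxycycline set SST had 33.89 CPM in induced cells of day 5 and 0.2806 to 1.606 CPM in the other libraries. Among the genes most alike, EIF4G1, RPS26, BCAT1, ALDH18A1, ZDHHC3 and CANX were not called with late FGF2 (edgeR adjusted p = 0.109 to 0.5). The other genes of these lists were called and rose. No PEA3 factor was among the 5 closest of another. ETV4 and ETV5 rose together with late FGF2, yet on day 5 with doxycycline one was 7.743-fold lower and the other at 5.435 times its uninduced level.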

How the data were processed

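Bulk RNA (50-base single-end reads of a TruSeq v2 library, per the labels' protocols) was measured in 13 libraries. The authors deposited gene counts; the submitters' processing notes name GRCh38, Subread and featureCounts 1.5.0, and the annotation release is not given in the sources used here, and the 3 members' versioned identifiers equal those of GENCODE 29. For the doxycycline set the authors also deposited limma voom normalized values (signal), and for early and late FGF2 their own log2 changes and p-values from DESeq2 and limma. Another 16 per-sample columns of those tables were not used.

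From the counts of the FGF2 set, edgeR 4.0.16 (R 4.3.3) was fitted over all 8 libraries (filterByExpr, TMM, quasi-likelihood, Benjamini-Hochberg over 20142 genes). The doxycycline set was scaled by TMM; ratios carry exact binomial counting intervals, which cover counting error only. Alternatives used DESeq2 1.42.0, limma 3.58.1, other scalings and filters, a replicate block and each library left out. Named genes are the members, up to 4 called genes of smallest p per list with late FGF2 and up to 3 between days, up to 3 of highest CPM per list in the doxycycline set, CIC, RET and the FGF receptors, and the 5 most alike genes per member. One gene that this rule names is not reported here. SPRY3 was not matched to 1 identifier. The members and lists were chosen with earlier results of these data known. The fit was tested on simulated counts with the same spread in every gene and group. That test does not cover the wider spread of the day 6 FGF2 pair. Each column was matched to its sample by name. No promoter window of ETV4 or ETV5 was analysed here.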

Additional observations from a re-analysis of the deposited data

Results flagged for a closer look

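Late and early FGF2 changes differed by edgeR's test of the difference for 11 named genes, beside 0.73% of all genes tested. Genes other than the members were named in part for a small p with late FGF2. The count of 11 thus follows partly from how they were chosen. On the log2 scale the late change minus the early one was 5.831 for ETV4, 1.164 for ETV5 and 1.099 for ETV1. Among the feedback genes it was 3.489 for SPRY4, 2.964 for DUSP6, 2.055 for SHC4, 1.748 for SPRY2 and 0.8065 for DUSP4. It was 0.898 for RET, 0.812 for SHC1 and 0.9723 for SEMA3E.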

How the results depend on the processing

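The late rises of ETV1, ETV4 and ETV5 and their late minus early differences kept direction and call under every alternative run: other scalings, DESeq2, limma, no filter, the replicate block and each library left out. Late calls over all genes numbered 437, 656 without the filter and 1338 with the day 12 libraries alone, and 184 to 1188 leaving out 1 library; late minus early calls numbered 147, 268 without the filter and 78 to 1345; early calls were 0 to 2523, the latter without day 6 FGF2 replicate 1. Late FGF2 calls numbered 598 with the replicate block, which gave log2 changes of 1.05 for ETV1, 5.81 for ETV4 and 1.08 for ETV5 and changed no call of a member. Deviations of same-numbered libraries correlated at 0.0111 to 0.225, highest between the day 6 control and day 6 FGF2 groups. Low correlations of this kind cannot show that libraries of the same line name are unpaired. The main fit left the pairing out.

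Leaving out 1 library, early changes ranged from -0.207 to 0.0748 for ETV1 (above 0 without day 6 FGF2 replicate 2) and from -0.056 to 0.0225 for ETV4 (above 0 without day 6 FGF2 replicate 1, and at 0.00109 without day 6 control replicate 1). ETV4 from day 6 to day 12 ranged from -1.47 to -0.46, and from day 6 FGF2 to the day 12 control from -1.44 to -0.429, uncalled without day 12 control replicate 2. FGFR3 with late FGF2 ranged from -0.546 to 0.247, above 0 without day 12 FGF2 replicate 1. With library totals ETV5 from day 6 to day 12 was 0.0259. The cause of these moves was not tested.

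In the doxycycline set the counting intervals are narrow, and other scalings moved ratios past them (log2, 1 CPM added). With library totals these were, for doxycycline against control, 1.35 for ETV1 and 2.24 for ETV5 on day 5 and -1.05 for ETV5 on day 11; for uninduced day 5 against day 0, -0.5 for ETV4; for uninduced day 11 against day 0, -1.07, -2.35 and 0.655 for ETV1, ETV4 and ETV5, and against day 5, 0.134 (reversed), -1.85 and 1.42; and for induced day 11 against day 5, -1.87 for ETV5. With the authors' deposited normalized values they were, in the same order, 1.09, -2.69 and 2.16 for ETV1, ETV4 and ETV5 on day 5 and -1.31 for ETV5 on day 11; -0.896, -0.577 and -1.02; -1.07, -2.34 and 0.652; -1.77 and 1.68 for ETV4 and ETV5; and -3.1 and -1.8 for ETV1 and ETV5. ETV4 in uninduced cells of day 11 against day 5 thus fell short of 4-fold in both. ETV4 has only 27 to 91 counts in 7 libraries, which limits its folds there.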
